A study of Mus musculus with 16 samples.

Results

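The enzymes that build cholesterol and the proteins that switch their genes on were followed as a set of 28 mouse genes in whole skin. The set was chosen by gene symbol, with earlier results of these data known. Shares of all genes set beside its counts are thus description and no independent test. All 28 were found among the 32078 genes of the deposited table and passed the filter on low values. RNA was sequenced from whole skin of 7 week old mice that had sodium dodecyl sulfate (SDS) put on the skin. SDS is a detergent used as a skin irritant. Some groups also had Topsym, the brand under which the glucocorticoid fluocinonide is sold (background knowledge that the labels do not give). The 16 libraries form 8 groups of 2: SDS with Topsym at days 0, 1, 3 and 5, and SDS alone at days 0, 1, 3 and 5. A treatment length of 4 days is stated, although sampling reaches day 5, and the sources used here do not say on which days either agent was put on. It is thus unknown what skin of the day 0 group with Topsym had been given. Skin of days 1, 3 or 5 that was left free of SDS is not among the groups, so time and SDS cannot be told apart. Neither strain nor sex is stated.

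Cholesterol is built from acetyl-CoA by way of mevalonate, farnesyl diphosphate, squalene and lanosterol, and the last steps turn lanosterol into cholesterol in the endoplasmic reticulum. The transcription factor SREBP2 switches on the genes of the whole route: when membrane sterol is low, SCAP carries the SREBP precursors to the Golgi for cleavage, and when it is high, the INSIG proteins hold the complex back. LXR, a receptor that senses oxidised sterols, drives the exporters ABCA1 and ABCG1. In the epidermis, keratinocytes make cholesterol for the lipid layers of the barrier, and sebaceous glands make sterols and fatty acids for sebum.

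Values are normalised reads of a gene in a library, as deposited, and always in the order of library 1 and library 2. Changes are differences of log2(normalised reads + 1) between groups of 2 with their standard error (SE), fitted with limma over 19189 genes, and a gene was called at an adjusted p under 0.05. Whether the 2 libraries of a group are 2 animals is not stated, so a p-value here reflects spread between libraries that may be technical. Libraries held 15199656 to 32066246 reads. The 4 libraries of day 5 stood apart: they detected 19885 to 20774 genes, against 22875 to 23740 in the 12 others, and their 10 highest genes took 10.3 to 14.8% of reads, against 4.91 to 7.06%. Keratin genes that define skin had reads in every library. Reads of Fdps are uncertain, since 86.4% of the windows of 50 bases along its transcript occur in other genes, among them Gm43738 and Gm3571. That share was 45.9% for Acat2, which has the near copy Acat3, and 21.3% for Idi1 and 10.9% for Fdft1. The strand setting of the authors' counting is unknown, so reads may be mixed where Fdft1 overlaps Ctsb, Cyp51 overlaps Akap9, Srebf1 overlaps Rai1, Ggps1 overlaps Arid4b and Lbr overlaps Dnah14 on the opposite strand. Tm7sf2 overlaps Vps51 on the same strand.

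At day 5 the route to cholesterol stood above day 0 along its whole length in both arms. With Topsym, 24 of the 28 genes were higher at day 5 than at day 0 and 3 were lower (Abcg1, Abca1 and Ggps1), while Srebf1 was not called. With SDS alone, 25 of 28 were higher and 3 were lower (Abca1, Insig2 and Ggps1). Over all genes tested, 70.2% were called at day 5 with Topsym, 32.8% higher and 37.5% lower, and 66.5% with SDS alone, 30.7% higher and 35.8% lower. The median change of the 28 genes was log2 1.99 with Topsym, against -0.08 for all genes, and log2 1.20 with SDS alone, against -0.09 for all genes. By step, all 7 mevalonate genes, all 3 genes from squalene to lanosterol and all 9 genes after lanosterol were higher in each arm. The largest change in both arms was that of Hsd17b7, which acts after lanosterol, at log2 3.68 (SE 0.08, adjusted p = 1.79e-16) with Topsym and log2 3.28 (SE 0.08, adjusted p = 1.16e-15) with SDS alone. With Topsym, Idi1 rose by log2 3.16 (SE 0.10, adjusted p = 3.96e-14), Acat2 by 3.03 (SE 0.08), Fdps by 2.94 (SE 0.25), Mvd by 2.92 (SE 0.08) and Sqle by 2.84 (SE 0.05). With SDS alone, Acat2 rose by log2 1.91 (SE 0.08, adjusted p = 1.67e-12), Stard4 by 1.84 (SE 0.08), Sqle by 1.80 (SE 0.05), Fdps by 1.80 (SE 0.25) and Lss by 1.79 (SE 0.06). In each of these genes both libraries of day 5 lay above all earlier libraries of the same arm.

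With SDS alone the step up came mostly between day 3 and day 5. With Topsym the median change of the 28 genes was log2 0.38 at day 1, 0.78 at day 3 and 1.99 at day 5 against its own day 0 libraries. Against day 0 of SDS alone, an alternative added after seeing the data, it was log2 -0.01, 0.43 and 1.71 at the same days, so the median was above 0 at day 1 against its own day 0 libraries and not against the others. Between day 3 and day 5, 24 of 28 genes rose and 2 fell with Topsym (median log2 0.92, with 27.1% of all genes higher and 35.1% lower, 62.2% in all), and 24 rose and 3 fell with SDS alone (median log2 1.43, with 28.9% higher and 34.5% lower, 63.4% in all). Tm7sf2 rose most in this interval, by log2 2.49 with Topsym (SE 0.15, adjusted p = 4e-10) and by log2 2.14 with SDS alone (SE 0.15, adjusted p = 2.06e-09). Both libraries of day 5 lay above every earlier library of the same arm for 25 of 28 genes with Topsym and for 24 of 28 with SDS alone. The exceptions were Ggps1, Abca1 and Abcg1 with Topsym, and Lbr, Ggps1, Insig2 and Abca1 with SDS alone. This order of libraries was not counted over all genes, so these counts are description only.

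**Figure D1:**
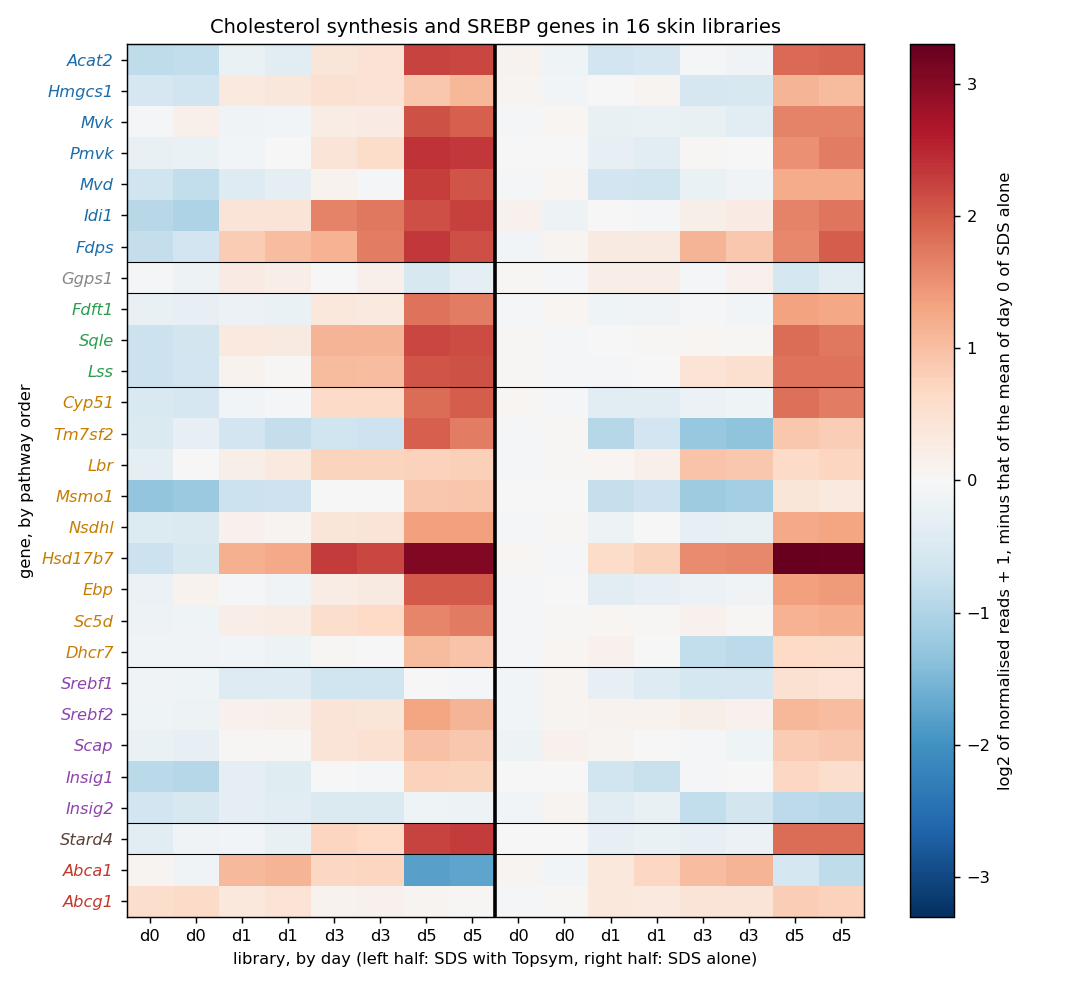
Each cell is the log2 level of a gene (rows, in pathway order) in a library (columns, by day d0 to d5) minus the mean of day 0 of SDS alone. The left side holds the libraries of SDS with Topsym and the right side those of SDS alone. Red is higher and blue lower; the day 5 columns are red for most genes on both sides, and the day 0 columns with Topsym are blue for most enzyme genes.

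**Figure D2:**
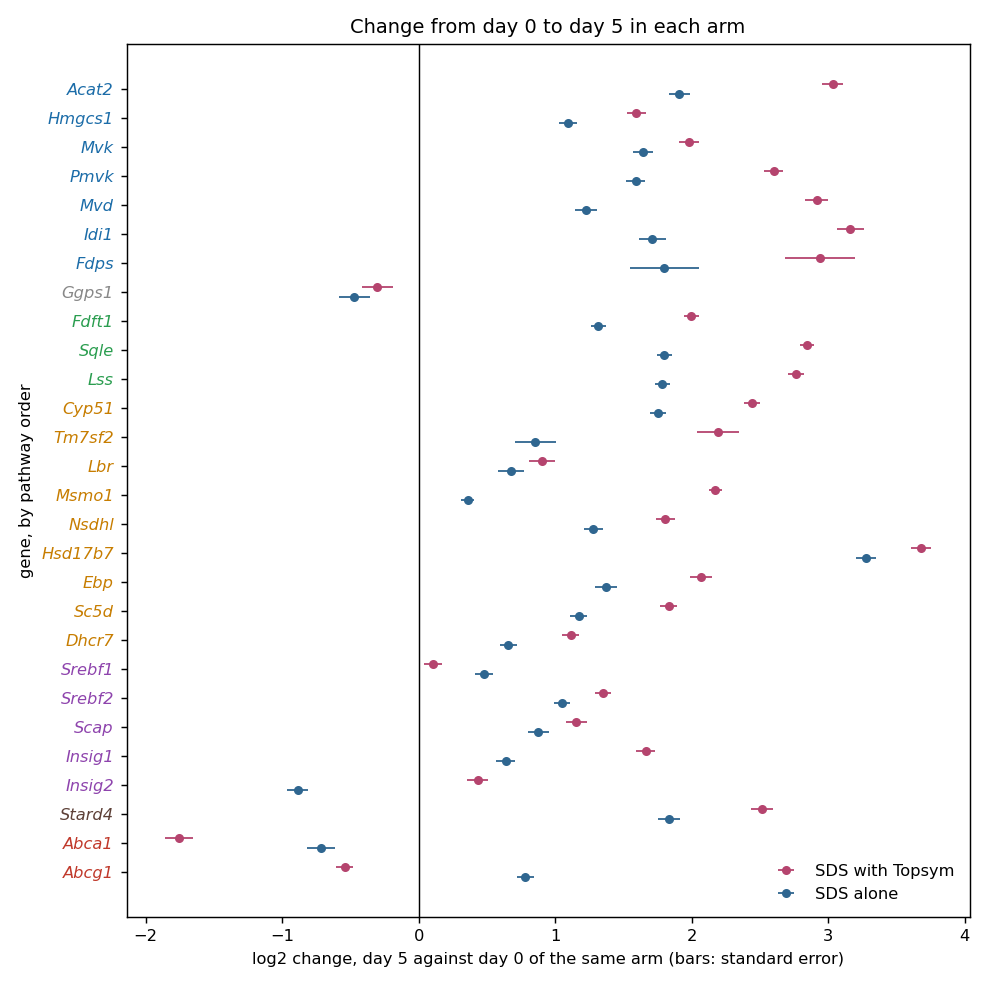
Log2 change of each gene at day 5 against day 0 of its own arm, with SDS and Topsym in pink and SDS alone in blue; bars are standard errors from limma. Hsd17b7 lies farthest to the right in both arms, at 3.68 with Topsym and 3.28 with SDS alone, and Abca1 lies to the left of 0 in both.

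The day 5 libraries also differed from day 0 in the cell types they reflect, and fewer cells of a type and less RNA per cell cannot be told apart in whole tissue. The summed level of 5 fibroblast genes was 5926 to 6002 at day 5 and 401130 to 408404 at day 0 with Topsym, and 13970.3 to 14147 at day 5 and 283377 to 292356 at day 0 with SDS alone; none of the 5 was at 0. The sum of 5 basal keratinocyte genes was 1218150 to 1279360 at day 5 and 361215 to 363954 at day 0 with Topsym, and 833730 to 883979 at day 5 and 339924 to 346712 at day 0 with SDS alone, although 2 of the 5 rose and 3 fell with Topsym, and 3 rose and 2 fell with SDS alone. All 4 stress keratin genes were higher at day 5 in each arm (median log2 6.47 with Topsym and 6.22 with SDS alone), and so were all 6 genes of cell division (median log2 1.89 with Topsym and 1.68 with SDS alone). The sum of the division genes was 18791 to 19851 at day 5 and 6731 to 6742 at day 0 with Topsym, and 12673 to 13488 at day 5 and 5138 to 5685 at day 0 with SDS alone. The stress keratin sum was 641882 to 675677 at day 5 and 37574 to 39144 at day 0 with Topsym, and 555651 to 579536 at day 5 and 39479 to 41099 at day 0 with SDS alone. All 6 macrophage genes and all 5 adipocyte genes were lower in each arm, with Lep at 0 at day 5 with Topsym. Of 5 differentiating keratinocyte genes 4 rose and 1 fell in each arm (median log2 1.28 with Topsym and 0.73 with SDS alone), with sums of 1441400 to 1447560 at day 5 and 416288 to 438462 at day 0 with Topsym, and 920579 to 982012 at day 5 and 417984 to 451286 at day 0 with SDS alone. Of 7 sebocyte genes 4 rose and 1 fell with Topsym, and 6 fell with SDS alone. Of 6 neutrophil genes 4 rose with Topsym and 5 with SDS alone, with Ly6g at 0 at day 5 in both arms. Their sum was 36237 to 36288 at day 5 and 189 to 194 at day 0 with Topsym. With SDS alone the sum was 261342 to 270779 at day 5 and 170.0 to 209 at day 0. From day 3 to day 5 of SDS alone, 2 of the 6 rose and 4 fell (median log2 -3.71). The sum at that day 3 was 55521 to 56105, so its rise to day 5 does not stand for all 6 genes. The part of these shifts in the rise of the cholesterol genes was not tested.

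The size of the rise at day 5 depends on how libraries are scaled. With libraries scaled to equal totals instead, a choice added after seeing the data, the median of all genes at day 5 against day 0 was log2 -0.66 with Topsym and -0.43 with SDS alone. Genes called higher then made up 22.5% of all calls with Topsym and 29.6% with SDS alone, against 46.6% and 46.2% under the deposited scaling. Here and below, a share of calls covers called genes only, so its base differs from that of counts out of the 28 genes. Under equal totals, 23 of the 28 genes still rose and 4 fell with Topsym (median log2 1.41), and 24 rose and 3 fell with SDS alone (median log2 0.87). Msmo1 with SDS alone and Insig2 with Topsym were then not called, and Insig2 turned to log2 -0.15, while Srebf1 with Topsym was called lower. From day 3 to day 5 with Topsym, 18 rose and 4 fell under equal totals, with 19.8% of all calls higher against 43.6%, and Hmgcs1, Idi1, Fdps, Insig2, Scap and Srebf1 were no longer called. With SDS alone, 22 rose and 4 fell from day 3 to day 5, with 31.5% of all calls higher against 45.6%.

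Promoter sequence was set beside these levels, since most members rose together at day 5. RefSeq windows on GRCm38.p6, from 250 bases before to 50 bases after a gene start, were matched for 23 of the 28 genes and not for Abcg1, Fdft1, Fdps, Sqle and Stard4. The letters of each motif were searched separately, on both strands. The sterol regulatory element that SREBP binds, written TCACNCCAC, was found in 1 of the 23 genes, Hmgcs1, and in 1.24% of all 32851 windows. CCAAT, the box that NF-Y binds, was found in 20 of 23 genes, 37.4% of all windows and 42.1% of the 12998 tested genes with a window. GGGCGG, the box that Sp1 binds, was found in 21 of 23 genes, 35.7% of windows and 62% of those tested genes. These are matches of letters, and functional elements often depart from such strings, so a window without a match says nothing of the factor. Shown are the 250 bases upstream of the start, 5′ to 3′ on the gene's strand, with matches in capitals, for the one gene with a sterol element (Hmgcs1, chr13:119690101-119690350, plus strand), 2 genes that rose in both arms (Mvd, chr8:122443423-122443672, minus strand, and Ebp, chrX:8193513-8193762, minus strand), the INSIG gene that fell at day 5 of SDS alone (Insig2, chr1:121332590-121332839, minus strand) and the exporter that fell in both arms (Abca1, chr4:53159896-53160145, minus strand).
Hmgcs1: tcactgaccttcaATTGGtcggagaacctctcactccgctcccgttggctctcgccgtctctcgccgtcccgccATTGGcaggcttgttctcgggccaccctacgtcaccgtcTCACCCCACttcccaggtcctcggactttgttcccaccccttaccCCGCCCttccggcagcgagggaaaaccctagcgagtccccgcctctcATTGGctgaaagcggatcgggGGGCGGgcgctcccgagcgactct
Mvd: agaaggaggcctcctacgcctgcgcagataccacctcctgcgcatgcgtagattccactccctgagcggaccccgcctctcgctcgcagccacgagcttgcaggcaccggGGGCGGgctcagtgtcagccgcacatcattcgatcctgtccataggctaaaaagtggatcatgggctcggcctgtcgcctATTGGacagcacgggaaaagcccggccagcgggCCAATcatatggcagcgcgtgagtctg
Ebp: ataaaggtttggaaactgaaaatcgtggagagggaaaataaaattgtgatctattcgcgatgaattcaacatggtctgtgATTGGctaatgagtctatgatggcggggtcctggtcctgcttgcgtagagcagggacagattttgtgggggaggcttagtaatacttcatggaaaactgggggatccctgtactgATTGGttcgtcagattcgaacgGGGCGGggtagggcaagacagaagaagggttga
Insig2: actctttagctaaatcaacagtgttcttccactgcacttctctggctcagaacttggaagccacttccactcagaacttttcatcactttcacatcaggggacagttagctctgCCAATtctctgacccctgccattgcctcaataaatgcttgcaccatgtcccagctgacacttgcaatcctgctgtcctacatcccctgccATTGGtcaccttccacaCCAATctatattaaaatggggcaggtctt
Abca1: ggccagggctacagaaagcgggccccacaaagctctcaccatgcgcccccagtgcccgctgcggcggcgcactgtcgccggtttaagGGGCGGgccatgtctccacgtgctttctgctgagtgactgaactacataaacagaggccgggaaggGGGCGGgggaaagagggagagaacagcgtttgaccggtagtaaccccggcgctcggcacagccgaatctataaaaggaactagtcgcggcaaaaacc
In Hmgcs1 the sterol element began 137 bases before the start, between CCAAT boxes at 176 and 45 bases, with GGGCGG boxes at 92 and 24 bases. ATTGG and CCGCCC are these boxes on the opposite strand. Mvd had 2 CCAAT boxes, at 60 and 27 bases, and Ebp had 2, at 170 and 55 bases. The 250 bases shown for Insig2 held 3 CCAAT boxes and no GGGCGG. They belong to 1 of 3 annotated starts of Insig2, the one whose upstream piece overlaps no exon, and the upstream pieces of the other two each held 1 GGGCGG and no CCAAT. Those for Abca1 held 2 GGGCGG boxes and no CCAAT.

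The mevalonate steps open the route. Acat2, the cytosolic thiolase that joins a pair of acetyl-CoA, had 544 and 556 at day 0, 826 and 759 at day 1, 1274 and 1343 at day 3 and 4528 and 4496 at day 5 with Topsym. In SDS alone Acat2 had 1053 and 884 at day 0, 629 and 662 at day 1, 925 and 886 at day 3 and 3554 and 3690.3 at day 5. Day 5 was the highest day in both arms, and the day 0 libraries with Topsym lay below those of SDS alone. Hmgcs1, the synthase that makes HMG-CoA (chromosome 13, 119690379 to 119708260), had 3025 and 2822 at day 0, 5564 and 5724 at day 1, 6318 and 6226 at day 3 and 8223 and 9477 at day 5 with Topsym. In SDS alone Hmgcs1 had 4732 and 4165 at day 0, 4518 and 4722 at day 1, 3038 and 3061 at day 3 and 9763 and 9219 at day 5. Hmgcs1 stood out at day 3, where its libraries with Topsym lay far above those of SDS alone, while the arms overlapped at day 5. Mvk, the mevalonate kinase, had 1119.8 and 1304 at day 0, 1079.7 and 1086 at day 1, 1372 and 1399.6 at day 3 and 4982 and 4574 at day 5 with Topsym. In SDS alone Mvk had 1118 and 1204 at day 0, 984 and 989.7 at day 1, 981 and 890.3 at day 3 and 3631 and 3632 at day 5. The largest step was that from day 3 to day 5 in both arms. Pmvk, the next kinase, had 1201 and 1232 at day 0, 1341 and 1413 at day 1, 1914 and 2178 at day 3 and 7458 and 7299 at day 5 with Topsym. In SDS alone Pmvk had 1416 and 1457 at day 0, 1199 and 1123 at day 1, 1488 and 1414 at day 3 and 4063 and 4604 at day 5. Per kilobase of the longest annotated transcript, Pmvk had the highest mean level of the 28 genes at day 5, 6179.9 normalised reads per kilobase with Topsym and 3629.6 with SDS alone.

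Mvd, the decarboxylase that makes isopentenyl diphosphate (chromosome 8, 122433601 to 122443422), had 708 and 632 at day 0, 826 and 890.0 at day 1, 1203 and 1092 at day 3 and 5442 and 4686 at day 5 with Topsym. In SDS alone Mvd had 1070.2 and 1153 at day 0, 713 and 703 at day 1, 956 and 1022 at day 3 and 2611 and 2586 at day 5. At day 5 both libraries with Topsym lay well above those of SDS alone. Idi1, the isomerase of isopentenyl diphosphate (chromosome 13, 8885501 to 8892451), had 264 and 242 at day 0, 662 and 662 at day 1, 1548 and 1663 at day 3 and 2172 and 2372 at day 5 with Topsym. In SDS alone Idi1 had 551 and 439 at day 0, 488 and 479 at day 1, 564 and 598 at day 3 and 1531 and 1695 at day 5. Idi1 climbed at each day with Topsym, and with SDS alone it rose between day 1 and day 3, a call lost under TMM scaling and under equal totals, and again by day 5. Fdps, farnesyl diphosphate synthase, had 26.1 and 29.3 at day 0, 82.6 and 94.3 at day 1, 104 and 149 at day 3 and 236 and 203 at day 5 with Topsym. In SDS alone Fdps had 43.2 and 48.9 at day 0, 56.3 and 57.1 at day 1, 101 and 86.5 at day 3 and 139 and 188 at day 5. Day 5 was again the highest day in both arms. At day 5 both libraries with Topsym lay above those of SDS alone, a difference that did not pass the test. Ggps1, which draws farnesyl diphosphate off toward prenyl groups and not toward sterol, had 431 and 397 at day 0, 532 and 517 at day 1, 450.3 and 503 at day 3 and 309 and 364 at day 5 with Topsym. In SDS alone Ggps1 had 459 and 429 at day 0, 514 and 521 at day 1, 433 and 489 at day 3 and 296 and 344 at day 5. Unlike the mevalonate genes above, Ggps1 fell at day 5 in both arms, and the arms overlapped at all 4 days.

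From farnesyl diphosphate the route is committed to sterol. Fdft1, squalene synthase, had 2262 and 2218 at day 0, 2346 and 2288 at day 1, 3418 and 3340.1 at day 3 and 9326 and 8584 at day 5 with Topsym. In SDS alone Fdft1 had 2540.4 and 2812 at day 0, 2432 and 2457 at day 1, 2611 and 2512 at day 3 and 6775 and 6536 at day 5. Its levels were close to flat through day 3 of SDS alone. Sqle, squalene epoxidase, a main control point of the route (chromosome 15, 59315077 to 59331192), had 1287 and 1388 at day 0, 2629 and 2583 at day 1, 4607 and 4650.5 at day 3 and 9683 and 9481 at day 5 with Topsym. In SDS alone Sqle had 2156 and 2079.6 at day 0, 2087 and 2189 at day 1, 2225 and 2168 at day 3 and 7626 and 7137 at day 5. Sqle was level over days 0, 1 and 3 of SDS alone and rose at every interval with Topsym. Lss, lanosterol synthase, which closes the sterol ring, had 653 and 688 at day 0, 1162 and 1111 at day 1, 2219 and 2189 at day 3 and 4542 and 4571 at day 5 with Topsym. In SDS alone Lss had 1111 and 1035 at day 0, 1024 and 1069 at day 1, 1464 and 1547 at day 3 and 3696 and 3700.2 at day 5. All 4 libraries of day 5 lay above every other library.

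After lanosterol, methyl groups are removed and double bonds moved. Cyp51, the lanosterol demethylase, had 2166 and 2108 at day 0, 2904 and 2948 at day 1, 4765 and 4761 at day 3 and 11022 and 12216 at day 5 with Topsym. In SDS alone Cyp51 had 3207 and 2943 at day 0, 2417 and 2412 at day 1, 2701 and 2766 at day 3 and 10778 and 9937 at day 5. Day 5 was highest in both arms, and the lowest day was day 0 with Topsym and day 1 with SDS alone. Tm7sf2, a sterol C14 reductase, had 176 and 203 at day 0, 157 and 142 at day 1, 154 and 153 at day 3 and 958 and 786 at day 5 with Topsym. In SDS alone Tm7sf2 had 239 and 249 at day 0, 127 and 157 at day 1, 102 and 97.2 at day 3 and 451 and 432 at day 5. Tm7sf2 dipped at days 1 and 3 of SDS alone before its rise at day 5. Lbr, a nuclear envelope protein with the same reductase activity, had 393 and 486 at day 0, 546 and 603 at day 1, 801 and 796 at day 3 and 809 and 826 at day 5 with Topsym. In SDS alone Lbr had 462 and 497 at day 0, 504 and 536 at day 1, 929 and 883 at day 3 and 749.8 and 784 at day 5. In contrast to Tm7sf2, Lbr rose by day 3 in both arms, did not pass the test between day 3 and day 5 with Topsym and fell in that interval with SDS alone. The fall was not called under TMM scaling, and with Topsym Lbr was called lower in that interval under equal totals.

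Msmo1, the sterol C4 methyl oxidase (chromosome 8, 64718139 to 64733792), had 1610.4 and 1716 at day 0, 2441 and 2487 at day 1, 4007 and 3994 at day 3 and 7399.9 and 7601 at day 5 with Topsym. In SDS alone Msmo1 had 3981 and 4024 at day 0, 2375 and 2472 at day 1, 1789.8 and 1847 at day 3 and 5234 and 5037 at day 5. The arms ran in opposite directions over days 0 to 3: Msmo1 rose at each day with Topsym and fell at each day with SDS alone. Nsdhl, the next dehydrogenase of C4 demethylation, had 506 and 498 at day 0, 758 and 729 at day 1, 907 and 926 at day 3 and 1757 and 1762 at day 5 with Topsym. In SDS alone Nsdhl had 673 and 708 at day 0, 611 and 683 at day 1, 571 and 581 at day 3 and 1639 and 1715 at day 5. At day 5 the difference between the arms did not pass the test. Hsd17b7, the ketoreductase of the same complex (chromosome 1, 169949535 to 169969241), had 241 and 272 at day 0, 887 and 949.5 at day 1, 1952 and 1841 at day 3 and 3267 and 3319.7 at day 5 with Topsym. In SDS alone Hsd17b7 had 411 and 379.9 at day 0, 601 and 664 at day 1, 1172 and 1198 at day 3 and 3851 and 3823 at day 5. This gene rose at every interval in both arms, and at day 5 it was lower with Topsym than with SDS alone, the only enzyme of the route called that way.

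Ebp, the sterol isomerase, had 994 and 1237 at day 0, 1095 and 1049 at day 1, 1358 and 1400.2 at day 3 and 4661 and 4655 at day 5 with Topsym. In SDS alone Ebp had 1119.5 and 1160.4 at day 0, 901 and 952 at day 1, 992 and 1046 at day 3 and 2892 and 3006 at day 5. Its largest step was that from day 3 to day 5 in both arms. Sc5d, the C5 desaturase, had 850.4 and 873 at day 0, 1129 and 1136 at day 1, 1442 and 1512 at day 3 and 2963 and 3178 at day 5 with Topsym. In SDS alone Sc5d had 936 and 986 at day 0, 998 and 989.7 at day 1, 1051 and 979.7 at day 3 and 2126 and 2204 at day 5. With SDS alone all libraries of days 0, 1 and 3 lay close together. Dhcr7, the reductase that makes cholesterol from 7-dehydrocholesterol, had 2789.6 and 2832 at day 0, 2876 and 2706 at day 1, 3125 and 3098 at day 3 and 6305 and 5857 at day 5 with Topsym. In SDS alone Dhcr7 had 2916 and 3178 at day 0, 3343 and 3017 at day 1, 1719.8 and 1667 at day 3 and 4850.0 and 4749 at day 5. With SDS alone Dhcr7 was lowest at day 3, where the libraries with Topsym were above those of day 1.

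**Figure D3:**
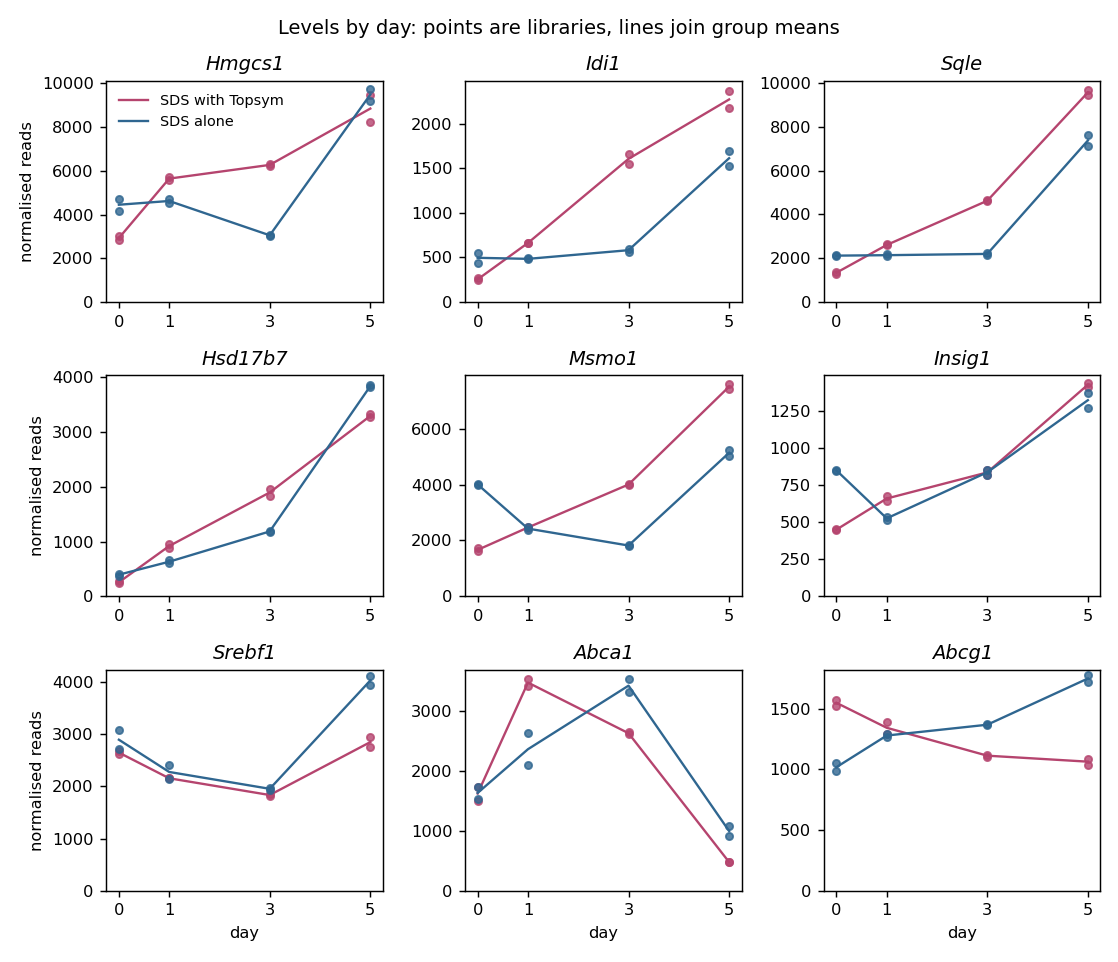
Normalised reads of 9 of the genes by day; points are libraries, and lines join the means of SDS with Topsym (pink) and SDS alone (blue). Idi1, Sqle and Hsd17b7 climb from day 0 with Topsym, while Sqle stays level until day 3 with SDS alone; Abca1 peaks at day 1 with Topsym and at day 3 with SDS alone.

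Of the genes that run the SREBP switch, Srebf2, Scap and Insig1 rose at day 5 in both arms. Srebf2, which encodes SREBP2, had 3572 and 3501 at day 0, 4288 and 4402 at day 1, 5266 and 5199 at day 3 and 9610.5 and 8469 at day 5 with Topsym. In SDS alone Srebf2 had 3689 and 4129 at day 0, 4240.2 and 4269 at day 1, 4451 and 4291 at day 3 and 8289 and 7878 at day 5. Both libraries of day 5 lay above all earlier ones in each arm. Srebf1, which encodes SREBP1, the form tied to fatty acid synthesis, had 2684 and 2615 at day 0, 2160.1 and 2154 at day 1, 1846 and 1825 at day 3 and 2943 and 2759 at day 5 with Topsym. In SDS alone Srebf1 had 2709 and 3083 at day 0, 2406 and 2151 at day 1, 1934 and 1976 at day 3 and 4120.1 and 3944 at day 5. Srebf1 fell at days 1 and 3 in both arms, and at day 5 it was lower with Topsym than with SDS alone, while Srebf2 was higher with Topsym. Scap, the sterol sensor that escorts SREBP, had 2119 and 2048 at day 0, 2500.4 and 2534 at day 1, 3317 and 3486 at day 3 and 4759.9 and 4526 at day 5 with Topsym. In SDS alone Scap had 2187 and 2713 at day 0, 2615 and 2464 at day 1, 2393 and 2214 at day 3 and 4395 and 4546 at day 5. At day 5 the arms overlapped.

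Insig1, itself a target of SREBP2 and the feedback arm of the switch, had 456 and 445 at day 0, 679.7 and 642 at day 1, 856 and 818 at day 3 and 1442 and 1417 at day 5 with Topsym. In SDS alone Insig1 had 845 and 857 at day 0, 539 and 515 at day 1, 822 and 854 at day 3 and 1376 and 1274 at day 5. At day 0 both libraries with Topsym lay far below those of SDS alone. At day 5 both lay above those of SDS alone, but that difference did not pass the test. Insig2, its paralogue, which depends less on SREBP, had 977 and 1052 at day 0, 1239 and 1195 at day 1, 1087 and 1091 at day 3 and 1379.5 and 1356 at day 5 with Topsym. In SDS alone Insig2 had 1435 and 1613 at day 0, 1188 and 1290.2 at day 1, 869 and 992 at day 3 and 834 and 812 at day 5. At day 5 of SDS alone the INSIG genes moved apart, Insig1 up and Insig2 down, and Insig2 was higher with Topsym than with SDS alone at day 5 (log2 0.73, SE 0.08, adjusted p = 1.2e-06). Stard4, a carrier that moves cholesterol between membranes and a target of SREBP2, had 562 and 666 at day 0, 676 and 612 at day 1, 1195 and 1148 at day 3 and 3386 and 3601 at day 5 with Topsym. In SDS alone Stard4 had 735 and 717 at day 0, 606 and 625 at day 1, 601 and 635 at day 3 and 2598 and 2592 at day 5. Its largest step was that from day 3 to day 5 in both arms.

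Of the exporters, Abca1 fell at day 5 in both arms, and Abcg1 rose with the enzymes at day 5 of SDS alone and fell with Topsym. Abca1, which loads cholesterol onto apolipoproteins (chromosome 4, 53030787 to 53159895), had 1744 and 1510.1 at day 0, 3425 and 3542 at day 1, 2616 and 2656 at day 3 and 474 and 486 at day 5 with Topsym. In SDS alone Abca1 had 1741 and 1534 at day 0, 2103 and 2634 at day 1, 3322 and 3541 at day 3 and 1089.8 and 909.8 at day 5. In both arms Abca1 first rose and then fell below every earlier library. From day 3 to day 5 it fell by 2.46 on the log2 scale with Topsym (SE 0.10, adjusted p = 3.79e-12) and by 1.78 with SDS alone (SE 0.10, adjusted p = 1.52e-10). Abcg1, which passes cholesterol to mature lipoproteins, had 1519.9 and 1574 at day 0, 1292 and 1392 at day 1, 1103 and 1121 at day 3 and 1087 and 1038 at day 5 with Topsym. In SDS alone Abcg1 had 982 and 1053 at day 0, 1289.7 and 1266 at day 1, 1371 and 1363 at day 3 and 1778 and 1716 at day 5. The arms crossed: at day 0 Abcg1 was higher with Topsym than with SDS alone, and at day 5 it was lower (log2 -0.72, SE 0.06, adjusted p = 1.14e-07). Macrophages express both exporters strongly. The summed level of 6 macrophage genes was 38245 to 38476 with Topsym and 15405 to 15437 with SDS alone at day 0, 40747 to 40972 and 23542 to 24909 at day 1, 16544 to 16580.3 and 35809.9 to 36528 at day 3, and 4553 to 5183 and 7182 to 7208 at day 5, in the same order of arms; none was at 0. The part of macrophages in the exporters' course was not tested.

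At day 1 with SDS alone, the enzymes that passed the test were lower, apart from Hsd17b7. Against day 0, 3 of the 28 genes rose (Hsd17b7, Abca1 and Abcg1) and 12 fell, with 12.8% of all genes called higher and 13.5% lower, 26.2% in all. Without library 2 of day 0, 5 rose and 8 fell. The median change was log2 -0.07, against -0.03 for all genes. Tm7sf2 fell by 0.78 on the log2 scale (SE 0.15, adjusted p = 0.000902), Msmo1 by 0.72 (SE 0.05), Insig1 by 0.69 (SE 0.07), Mvd by 0.65 (SE 0.08) and Acat2 by 0.58 (SE 0.08), while Hsd17b7 rose by 0.68 (SE 0.08, adjusted p = 4.05e-06). None of the 3 genes from squalene to lanosterol was called. At day 3 against day 0, 7 genes rose and 10 fell with SDS alone, with 25.4% of all genes higher and 24.2% lower, 49.6% in all, so the share of rises was close to that of all genes. Hsd17b7 rose by log2 1.58 (SE 0.08, adjusted p = 3.3e-11) and Abca1 by 1.07 (SE 0.10), while Tm7sf2 fell by 1.29 (SE 0.15, adjusted p = 2.04e-06) and Msmo1 by 1.14 (SE 0.05). Lbr rose by log2 0.92 (SE 0.10) and Fdps by 1.01 (SE 0.25).

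Between day 1 and day 3 of SDS alone, 11 genes rose and 6 fell, with 23.6% of all genes higher and 18.6% lower, 42.2% in all. Dhcr7 fell by 0.91 on the log2 scale (SE 0.06, adjusted p = 2.6e-09) and Hmgcs1 by 0.60 (SE 0.07), and Hsd17b7 rose by 0.91 (SE 0.08), Lbr by 0.80 (SE 0.10) and Insig1 by 0.67 (SE 0.07). Fdps rose by 0.71 (SE 0.25, adjusted p = 0.033), a call that was lost without any one of the 4 libraries compared, at adjusted p of 0.0595 to 0.168. Under equal totals Cyp51, Fdps and Idi1 lost the call, and Nsdhl and Scap were called lower.

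With Topsym, most of the genes were already above their own day 0 libraries at day 1. Against the day 0 libraries with Topsym, 19 of 28 genes rose and 2 fell at day 1 (Abcg1 and Srebf1), with 20.3% of all genes higher and 20.5% lower, 40.8% in all, and 23 rose and 2 fell at day 3, with 27% higher and 28.2% lower, 55.2% in all. The median change was log2 0.38 at day 1 and 0.78 at day 3, against -0.03 and -0.04 for all genes. At day 1 Hsd17b7 rose by log2 1.84 (SE 0.08, adjusted p = 9.96e-12), Fdps by 1.64 (SE 0.25), Idi1 by 1.38 (SE 0.10), Abca1 by 1.10 (SE 0.10), Sqle by 0.96 (SE 0.05) and Hmgcs1 by 0.95 (SE 0.07). At day 3 Hsd17b7 rose by log2 2.88 (SE 0.08, adjusted p = 1.19e-14), Idi1 by 2.66 (SE 0.10), Fdps by 2.13 (SE 0.25), Sqle by 1.79 (SE 0.05), Lss by 1.71 (SE 0.06) and Msmo1 by 1.27 (SE 0.05). Between day 1 and day 3, 20 rose and 3 fell, with 22.1% higher and 22.9% lower, 45% in all, led by Idi1 at log2 1.28 (SE 0.10, adjusted p = 1.81e-08) and Hsd17b7 at 1.05 (SE 0.08). Markers of some other cell types rose over the same day 0 libraries, and those of others fell. All 7 sebocyte genes were higher at day 1 (median log2 1.42) and 5 of 7 at day 3, with sums of 7708 to 7822 at day 1, 8782 to 8938 at day 3 and 3857 to 3965 at day 0. All 5 adipocyte genes (median log2 1.88) and all 5 skeletal muscle genes (median log2 1.47) were also higher at day 1. The adipocyte sum was 18756 to 19078 at day 1 and 5204 to 5306 at day 0, and the muscle sum was 362096 to 368046 at day 1 and 117313 to 118798 at day 0. None of these genes was at 0. Of 5 fibroblast genes 4 were lower at day 1 and none higher (median log2 -0.88). Of 5 basal keratinocyte genes 1 was higher and 3 lower, and of 6 macrophage genes 3 were higher and 2 lower. The sum of the division genes was 3060 to 3076 at day 1 and 6731 to 6742 at day 0. The part of any of these lists in the rise was not tested.

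These rises rest on the day 0 libraries with Topsym, which were low for most of the set. Set against day 0 of SDS alone instead, 8 genes rose and 8 fell at day 1 with Topsym, with 15.6% of all genes higher and 15.4% lower. At day 3, 19 rose and 3 fell, with 25.2% of all genes higher and 26.3% lower. At day 5, 23 rose and 2 fell, with 32.1% of all genes higher and 39.3% lower. Msmo1 at day 3 with Topsym was then level with day 0, at a log2 change of -0.00061, in place of a rise. The counts at day 5 thus changed little with the choice of day 0 libraries, and those at day 1 changed much.

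Side by side at the same day, the arms changed order. At day 0, 16 of 28 genes were lower with Topsym than with SDS alone and 1 was higher (Abcg1), with 11.2% of all genes lower and 10.8% higher, 22% in all, and the median was log2 -0.31. Msmo1 was lower by log2 -1.27 (SE 0.05, adjusted p = 8.4e-12), Idi1 by -0.96 (SE 0.10), Insig1 by -0.91 (SE 0.07), Acat2 by -0.81 (SE 0.08), Mvd by -0.73 (SE 0.08) and Lss by -0.68 (SE 0.06). For 22 genes both Topsym libraries lay below both libraries of SDS alone, passing the test or not. That order was not counted over all genes, so this count is description only. Sebaceous gland genes moved the same way. All 7 sebocyte genes were lower with Topsym at day 0 (median log2 -2.11), with a summed level of 3857 to 3965 with Topsym and 13246 to 13548 with SDS alone, and none at 0. Other cell types differed at day 0 too. All 5 skeletal muscle genes (median log2 -1.41) and 4 of 5 adipocyte genes (median log2 -1.09) were lower with Topsym. All 6 macrophage genes (median log2 1.28) and 4 of 5 fibroblast genes were higher, and 1 fibroblast gene was lower. The part of any of these lists in the lower cholesterol genes was not tested. At day 1 the sebocyte sums were 7708 to 7822 with Topsym and 7482 to 7593 with SDS alone, where 1 of the 7 was lower and none higher.

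At day 1, 10 of 28 genes were higher with Topsym than with SDS alone and none was lower, with 5.51% of all genes higher and 4.29% lower, 9.8% in all. Abca1 was higher by log2 0.57 (SE 0.10, adjusted p = 0.00174), Hsd17b7 by 0.54 (SE 0.08), Idi1 by 0.45 (SE 0.10), Insig1 by 0.33 (SE 0.07), Acat2 by 0.29 (SE 0.08) and Hmgcs1 by 0.29 (SE 0.07). This count was not stable: it was 6 without either library of SDS alone at day 1 (1 gene was then lower without library 2), 4 without library 1 and 5 without library 2 of SDS with Topsym at day 1. Idi1, Insig1, Acat2 and Hmgcs1 each lost the call without some of these libraries or without library 2 of SDS alone, at adjusted p of 0.054 to 0.228. With equal totals 8 were higher and 1 was lower, and 45.5% of all calls were higher in place of 56.2%.

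At day 3 the difference was widest. With Topsym, 21 of 28 genes were higher than with SDS alone and 2 were lower (Abca1 and Abcg1), with 20.8% of all genes higher and 22.9% lower, 43.8% in all, and the median was log2 0.54, against -0.04 for all genes. Idi1 was higher by log2 1.47 (SE 0.10, adjusted p = 3.28e-09), Msmo1 by 1.14 (SE 0.05), Sqle by 1.08 (SE 0.05), Hmgcs1 by 1.04 (SE 0.07), Stard4 by 0.92 (SE 0.08) and Dhcr7 by 0.88 (SE 0.06). Of the 19 enzyme genes from Acat2 to Dhcr7 on the sterol route, 17 were called higher, and Fdps and Lbr were not called. All 6 genes of cell division were also higher with Topsym at day 3 (median log2 1.90), and so were all 4 stress keratin genes (median log2 1.34), with division sums of 13165 to 13244 with Topsym and 3525 to 3633 with SDS alone, while all 6 macrophage and all 6 neutrophil genes were lower. The neutrophil sum was 2215 to 2396 with Topsym, with Ly6g at 0, and 55521 to 56105 with SDS alone. Their part in the higher cholesterol genes was not tested.

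**Figure D4:**
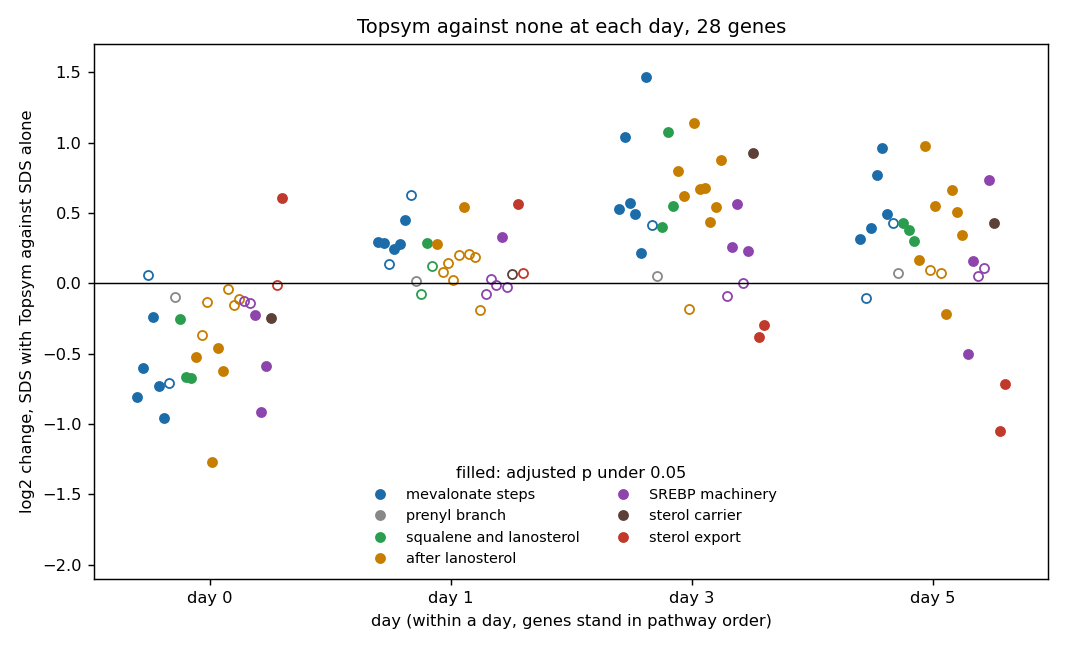
Log2 difference between SDS with Topsym and SDS alone at each day for the 28 genes, coloured by role, with filled points past an adjusted p of 0.05. Most points lie below 0 at day 0 (16 called lower) and above 0 at day 3 (21 called higher), and the exporters lie below 0 at days 3 and 5.

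At day 5, 17 of 28 genes were higher with Topsym than with SDS alone and 4 were lower (Abcg1, Abca1, Srebf1 and Hsd17b7), with 22.6% of all genes higher and 24.2% lower, 46.8% in all, and the median was log2 0.33. Tm7sf2 was higher by log2 0.97 (SE 0.15, adjusted p = 6.2e-05), Mvd by 0.96 (SE 0.08), Pmvk by 0.77 (SE 0.07) and Insig2 by 0.73 (SE 0.08). Abca1 was lower by log2 -1.05 (SE 0.10, adjusted p = 4.94e-07). This comparison depends on scaling. With equal totals 10 were higher and 5 lower (median log2 0.10), and 26% of all calls were higher in place of 48.3%. Mvk, Acat2, Lss, Cyp51, Dhcr7, Srebf2 and Stard4 then lost the call, and Hmgcs1, not called under the deposited scaling, was called lower at log2 -0.34. In the same comparison 4 of 5 differentiating keratinocyte genes were higher with Topsym and 1 was lower. Of 7 sebocyte genes 5 were higher and 1 lower, and 5 of 6 cell division genes were higher. Of 5 basal keratinocyte genes 2 were higher and 3 lower (median log2 -0.46). All 5 skeletal muscle genes were higher (median log2 0.80), and all 6 macrophage, 5 of 6 neutrophil and all 5 fibroblast genes were lower. The division sum was 18791 to 19851 with Topsym and 12673 to 13488 with SDS alone. The part of these genes in the difference was not tested.

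The change from day 0 itself differed between the arms. This test subtracts the change of SDS alone from the change with Topsym, and it uses the day 0 libraries with Topsym described above. At day 1 it was higher with Topsym for 16 genes and lower for 1 (9.18% and 8.06% of all genes, 17.2% in all), at day 3 for 23 and 1 (19.5% and 19.5%, 39% in all), and at day 5 for 22 and 3 (17.3% and 17.7%, 34.9% in all). At day 1 it was largest for Idi1, at log2 1.41 (SE 0.14, adjusted p = 1.88e-06), and Msmo1, at 1.29 (SE 0.07). Fdps stood at 1.34 (SE 0.36, adjusted p = 0.015), a call lost without library 2 of SDS alone at day 0 or library 2 with Topsym at day 1. At day 3 it was largest for Idi1, at log2 2.42 (SE 0.14, adjusted p = 7.55e-10), Msmo1, at 2.40 (SE 0.07), and Sqle, at 1.74 (SE 0.07). At day 5 it was largest for Msmo1, at log2 1.81 (SE 0.07, adjusted p = 5.08e-12), Mvd, at 1.69 (SE 0.12), and Idi1, at 1.45 (SE 0.14). Abcg1 ran the other way at every day, with log2 -0.54 at day 1 (SE 0.09), -0.90 at day 3 (SE 0.09) and -1.32 at day 5 (SE 0.09, adjusted p = 5.26e-09). At day 5 Abca1 (-1.04, SE 0.15) and Srebf1 (-0.37, SE 0.09) joined it. With equal totals the counts at day 5 were 16 and 3, with 25.1% of all calls higher in place of 49.4%, and at day 1 they stayed at 16 and 1, with 43% of all calls higher in place of 53.3%. By the same test all 7 sebocyte genes were higher with Topsym at each day, with a median of log2 1.90 at day 1, 2.83 at day 3 and 2.90 at day 5. At day 5 their sum was 5542 to 5704 with Topsym and 4999.7 to 5173 with SDS alone. All 5 skeletal muscle genes were higher at each day too (medians log2 2.01, 0.41 and 2.23). The part of these genes in the difference was not tested.

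**Figure D5:**
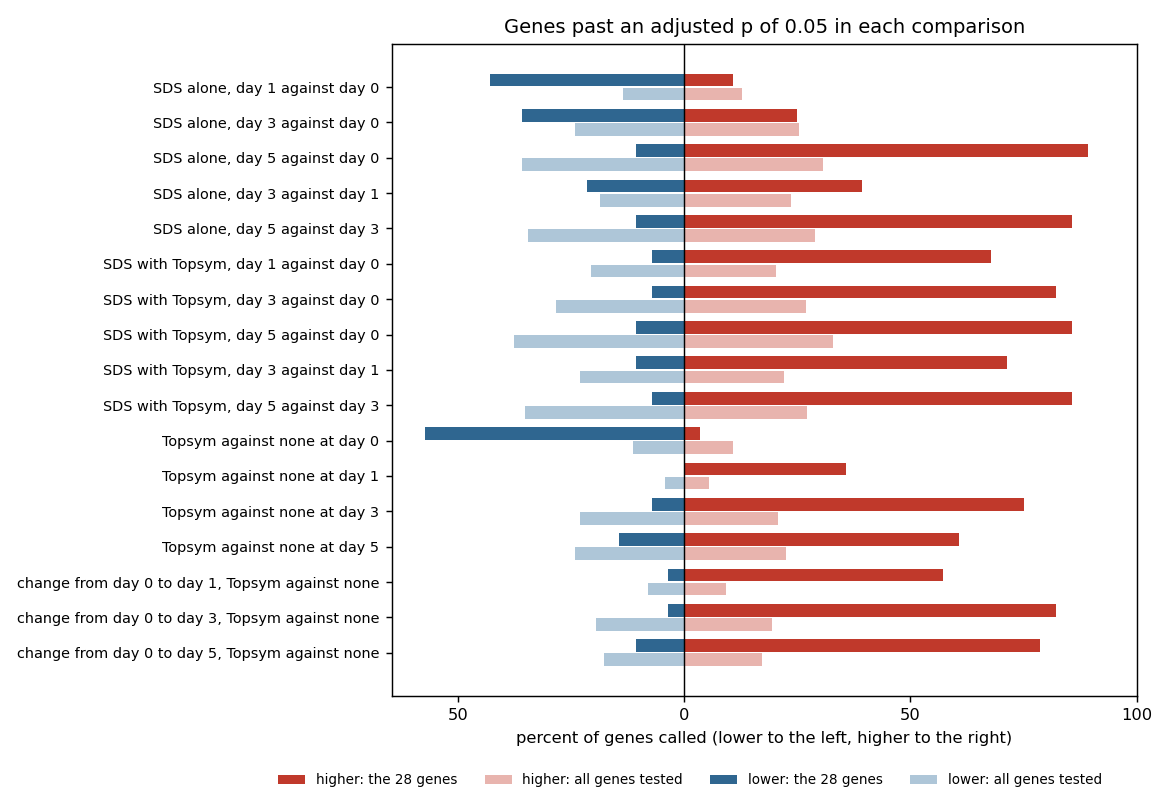
Share of genes called higher (to the right, red) and lower (to the left, blue) in each of 17 comparisons, for the 28 genes in dark colours and for all 19189 genes tested in pale colours. The dark red bars are far longer than the pale ones in each comparison of day 5 with an earlier day, and the dark blue bar is longest for Topsym against none at day 0, where 16 of 28 genes were lower.

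Beside the sterol route, other genes of lipid metabolism were followed as lists. At day 5 against day 0, the counts of each list stand beside 32.8% of all genes higher and 37.5% lower with Topsym, and 30.7% higher and 35.8% lower with SDS alone. Of 11 genes of fatty acid synthesis and desaturation under SREBP control, 8 were higher and 3 lower at day 5 against day 0 with Topsym (median log2 1.22), and 5 were higher and 6 lower with SDS alone (median log2 -0.29). Scd2, a fatty acid desaturase, had 15621 and 15197.5 normalised reads at day 5 and 3120.3 and 3121 at day 0 with Topsym, and 16461 and 16405 at day 5 and 3228 and 3590.2 at day 0 with SDS alone. Scd1, the desaturase known from mouse sebaceous glands, had 8396 and 8216 at day 5 and 10401 and 10769 at day 0 with Topsym, and 11077 and 10881 at day 5 and 40877 and 39916 at day 0 with SDS alone. Elovl6, which lengthens fatty acids, had 3273 and 3150.4 at day 5 and 2458 and 2461 at day 0 with Topsym, and 2554 and 2309 at day 5 and 12425 and 12153 at day 0 with SDS alone. At day 0, 8 of the 11 were lower with Topsym than with SDS alone and 1 was higher (median log2 -0.56, beside 11.2% of all genes lower and 10.8% higher), with sums of 31062 to 31212 with Topsym and 80409 to 80476 with SDS alone. At day 3, 8 were higher with Topsym and 2 lower, beside 20.8% of all genes higher and 22.9% lower.

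Among 9 further genes of SREBP cleavage and sterol sensing, 3 rose and 5 fell at day 5 with Topsym, and 2 rose and 4 fell with SDS alone. The SREBP target Tmem97 rose in both arms, with 2334 and 2209 normalised reads at day 5 and 305 and 332 at day 0 with Topsym, and 1386 and 1409 at day 5 and 462 and 450.4 at day 0 with SDS alone. Mbtps1, the protease that first cuts SREBP, fell by 0.53 on the log2 scale with Topsym and by 0.69 with SDS alone (SE 0.05 each). Of 7 further genes of LXR and its targets, 2 rose and 4 fell with Topsym and 3 rose and 2 fell with SDS alone. Pltp, a phospholipid transfer gene, fell by 3.45 with Topsym and 2.13 with SDS alone, and Nr1h3, which encodes LXR alpha, fell by 1.20 with Topsym and 1.66 with SDS alone. Smpdl3a had 4233 and 4186 normalised reads at day 5 and 1596 and 1557 at day 0 with SDS alone. With Topsym Smpdl3a had 1472 and 1487 at day 5 and 1665 and 1798 at day 0. Rxra had 10416 and 10259 at day 5 and 6868 and 6933.5 at day 0 with SDS alone. With Topsym Rxra had 10605 and 9820 at day 5 and 6514 and 6693 at day 0. Of 9 genes that use mevalonate products for ubiquinone, dolichol and prenyl groups, 4 rose and 2 fell with Topsym and 4 rose and 4 fell with SDS alone.

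Of 9 genes of cholesterol storage, uptake and transfer, 2 rose and 5 fell at day 5 with Topsym and 3 rose and 4 fell with SDS alone. Sult2b1, which makes the cholesterol sulfate of the outer epidermis, had 14689 and 13913 normalised reads at day 5 and 1201 and 1332 at day 0 with Topsym, and 6682 and 6781 at day 5 and 1064 and 1053 at day 0 with SDS alone. It rose by log2 3.50 with Topsym and 2.67 with SDS alone (SE 0.07 each, adjusted p = 9.86e-17 and 4.79e-15). Soat1, which esterifies cholesterol for storage and is also counted among the sebocyte genes, had 341 and 407 at day 5 and 847 and 856 at day 0 with Topsym, and 552 and 428 at day 5 and 2297 and 2366 at day 0 with SDS alone. Sult2b1 was among the genes that rose and Soat1 among those that fell in both arms. Ch25h, which makes an oxidised sterol, was already low at day 0 of SDS alone, with 15.9 and 15.2. It had no read in either library of day 5 of SDS alone, and 4.03 and 0 at day 5 with Topsym.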

How the data were processed

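The files hold 1 table of the whole series: normalised gene counts of 16 libraries of mouse whole skin, each column mapped to its library by the labels (unmapped sample columns: 0). RNA was taken with an RNeasy Micro kit and libraries were made with an Agilent SureSelect strand-specific kit, per the labels' protocols. Per the submitters' processing notes, the tools were Trim Galore 0.6.7, HISAT2 2.2.1, featureCounts 2.0.3 and DESeq2 2.11.40.8, on mm10. The deposited values are a signal: read counts per gene divided by a size factor of each library. Dividing each column by its smallest step gave back whole reads for all genes within 1e-04. Its strand setting is unknown.

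Values were log2 transformed after adding 1, kept where 2 or more libraries reached 10, and fitted with limma 3.58.1 (R 4.3.3) as 8 group means with a variance trend. p-values are two-sided and Benjamini-Hochberg adjusted over 19189 genes in each of 17 comparisons. The scripts were tested on simulated data. All 28 genes are named with their levels, and changes are given for at most 6 called genes in each comparison, those of largest size, and for at most 3 in each direction where the arms' changes are compared. Of other lists at most 4 called genes are named, those of largest change at day 5 of SDS alone. The comparisons share groups: each day 0 group enters several. The 28 genes and the lists were chosen with earlier results of these data known.

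On the recovered reads, edgeR 4.0.16 (quasi-likelihood) called 6253 genes higher and 6533 lower at day 5 against day 0 of SDS alone, and DESeq2 1.42.0 called 5874 and 6720. Further alternatives were TMM scaling, no filter, 4 as the pseudocount, a robust prior, fits of only the libraries compared, the replicate number as a block and each library left out. Equal totals scaling, fits without day 5 and another day 0 for the Topsym arm were added after seeing the data. Gene positions and overlaps are from GENCODE M21 on GRCm38, and promoter windows from RefSeq on GRCm38.p6. Reads are not unique molecules.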

Additional observations from a re-analysis of the deposited data

Results flagged for a closer look

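The change from day 0 differed between SDS with Topsym and SDS alone, by a test of the difference itself with limma, for 17 of the 28 genes at day 1, 24 at day 3 and 25 at day 5. Over all genes tested, the share that differed was 17.2% at day 1, 39% at day 3 and 34.9% at day 5. Positive values mean a larger rise, or a smaller fall, with Topsym. Idi1 differed by log2 1.41 at day 1, 2.42 at day 3 and 1.45 at day 5. Msmo1 differed by log2 1.29 at day 1, 2.40 at day 3 and 1.81 at day 5. Fdps differed by log2 1.34 at day 1, Sqle by 1.74 at day 3 and Mvd by 1.69 at day 5. Abcg1 differed by log2 -0.54 at day 1, -0.90 at day 3 and -1.32 at day 5. At day 5 Abca1 differed by log2 -1.04 and Srebf1 by -0.37. All of these values include the difference between the day 0 groups, where 16 of the 28 genes were lower with Topsym. With 2 libraries in a group, no check for single libraries far from their group was possible.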

How the results depend on the processing

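The changes of largest size among those called in each comparison, 98 in all, were computed under the alternatives as 2530 values. Not all 98 are named above. Of the values, 2512 kept their direction and their side of the threshold, 17 lost the call and 1 turned its sign. The sign turned for Msmo1 at day 3 with Topsym, at log2 -0.000607 against day 0 of SDS alone (adjusted p = 0.996, limma). Large called changes are less likely to lose a call, and many libraries left out lay outside the groups compared. The 98 thus do not stand for smaller changes, of which many lost or gained a call under equal totals. Counts of called genes, both directions together, stayed within 1.5 times in 16 of the 17 comparisons. The total hides shifts by direction: day 1 against day 0 with Topsym had 19 higher and 2 lower, and 8 and 8 with day 0 of SDS alone, and Topsym against none at day 5 had 17 higher, and 10 under equal totals. Day 1 against day 0 of SDS alone had 3 higher, and 5 without library 2 of day 0. The exception was Topsym against none at day 1, with 10 genes, which ranged from 4 to 11 with 1 library left out. With the replicate number as a block it was 9, and day 5 against day 0 of SDS alone stayed at 28; the block moved no count by over 1.5 times. The numbers do not pair the libraries: correlations of deviations between same-numbered libraries over 28 pairs of groups ran from -0.031 to 0.030. Where leaving out a library leaves 1 in its group, that library is assumed to vary like the others.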
